A study of Chlamydomonas reinhardtii with 8 samples.

Results

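The 37 genes described here encode proteins of the mitochondrial ribosome of Chlamydomonas reinhardtii, a unicellular green alga. A rule on the symbol in the deposited table picked them, MRPL or MRPS followed by a number. The set was chosen with earlier results of these data known. They are 37 of the 17737 genes in the table, and 23 of them name large-subunit proteins (MRPL) and 14 small-subunit proteins (MRPS). Messenger RNA of strain CC-4532 was sequenced in 8 conditions. Zinc-deficient cells (0 h) came from a second round of culture without added zinc, and the same kind of culture was sampled 1.5 h, 3 h, 4.5 h, 12 h and 24 h after 2.5 µM zinc had been returned. The references are a pair of zinc-replete cultures that the labels call early and late. All cultures grew in acetate medium under continuous light, no mock-treated culture is among the samples, and whether the early or the late replete culture is nearer in age to the deficient one is not stated. The table gives 1 FPKM value per gene and condition, in which the fragments of a gene are divided by its length and by the size of the library, and it adds confidence bounds whose level is not stated. No replicate values were available, so no difference below has a p-value or a replicate check.

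Mitochondrial ribosomes translate the few proteins still encoded in mitochondrial DNA, nearly all of them membrane subunits of the respiratory chain. In Chlamydomonas the mitochondrial genome carries the ribosomal RNAs in fragments, while the ribosomal proteins are made from nuclear genes, translated in the cytosol and imported. Most of these proteins descend from the bacterial ribosome, and others were added in mitochondria. Some bacterial ribosomal proteins, L36, S14 and S18 among them, exist in a form that binds zinc through cysteines and in a form without those cysteines, and several bacteria make the zinc-free forms when zinc is short. Whether the algal proteins carry such cysteines was not analysed here.

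All 37 genes were expressed in every condition, and all passed the filter of a mean of at least 1 FPKM over the 8 conditions. The median member lay at 8.25 FPKM at 0 h, 9.69 at 1.5 h, 10.9 at 3 h, 11.0 at 4.5 h, 8.92 at 12 h and 9.72 at 24 h, against 9.71 FPKM in early and 7.40 FPKM in late replete cells. Over the same conditions the median of all 11498 genes past the filter stayed between 5.27 and 5.74 FPKM. Levels spread widely within the set: MRPL1, named for the protein of the mobile L1 stalk, had the lowest mean (2.69 FPKM) and MRPS6 the highest (180 FPKM). After MRPS6 the next highest means were those of MRPL36 (33.9 FPKM) and MRPL7 (27.8 FPKM), with MRPL7 named for the factor-recruiting stalk protein L7/L12. After MRPL1 the next lowest means were those of MRPL22 (3.33 FPKM), an exit-tunnel protein in bacteria, and MRPS18 (3.96 FPKM), the partner of S6 on the platform of the bacterial small subunit.

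The distance between a member's highest and lowest condition, on the log2(FPKM + 1) scale, had a median of 0.67, against 0.93 over all genes past the filter. It reached 1 in 7 members (MRPL11, MRPL14, MRPL16, MRPL20, MRPL36, MRPS6 and MRPS17), while 45.5% of all genes reached it. The highest value fell at 1.5, 3 or 4.5 h in 31 of 37 members, as it did in 45.7% of all genes, and the lowest value fell at 0 h or in late replete cells in 32 of 37, against 44.3% of all genes. These counts were not repeated with the conditions scaled to the same total FPKM. Without MRPS6, the members made up 0.0531% of all FPKM at 0 h, 0.0515% at 1.5 and 3 h and 0.0524% at 4.5 h. Their share was 0.0464% at 12 h, 0.0474% at 24 h, 0.0435% in early and 0.0407% in late replete cells. As a description of shape, 21 of 37 members had a Pearson correlation of at least 0.8 with the median course of the other members over the 8 conditions, which all members share as libraries. The correlation was not computed for other genes, so this count does not set the members apart. MRPL30 (0.95), MRPS19 (0.94), MRPL16 and MRPL21 (both 0.93) followed that course most closely. MRPL11 (-0.64), MRPS29 (0.09) and MRPL36 (0.27) followed it least.

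**Figure D1:**
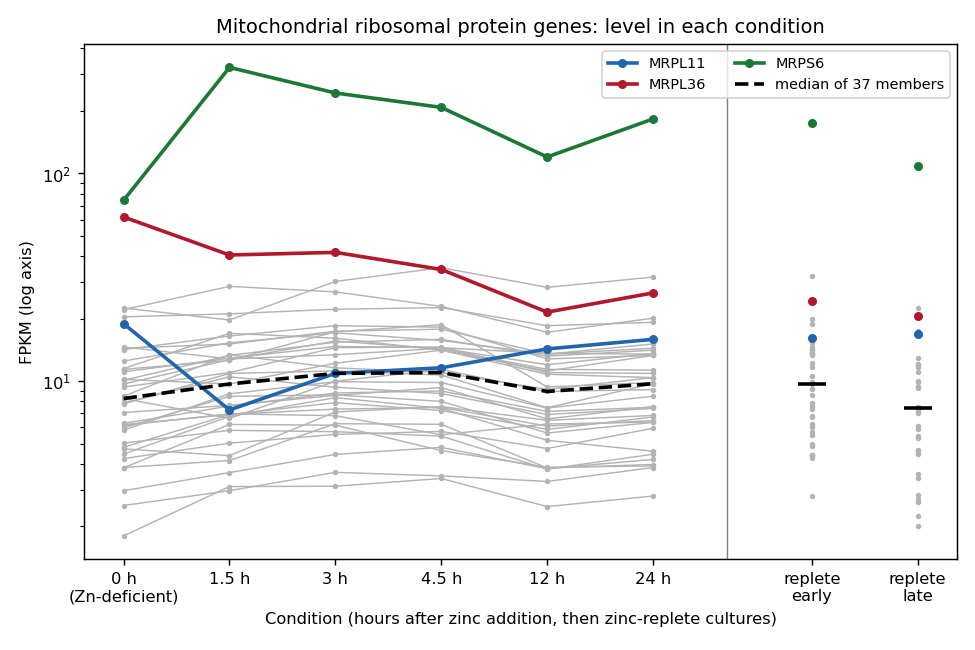
FPKM (log axis) of each of the 37 genes in the 8 conditions, with time after zinc addition on the left (times evenly spaced, not to scale) and the replete cultures on the right. Grey lines and points are single genes, coloured ones are the 3 genes named in the legend, and the black dashed line and bars are the median of all 37. MRPS6 lies above every other gene in all 8 conditions, and MRPL36 starts at 61.7 FPKM and ends at 26.6 FPKM.

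Changes were measured as log2((a + 1)/(b + 1)) of the FPKM values, a scale that shrinks the changes of low genes. A gene was called when this log2 ratio was at least 1 in size and the confidence bounds of one condition lay wholly above those of the other. Across 10 comparisons 3 of the 37 members were called at least once (MRPL36, MRPS6 and MRPL11), and 34 were called in none, while 36.8% of all genes past the filter were called at least once. Zinc-deficient cells against early replete cells gave MRPL36 as the 1 higher member, where 7.59% of all tested genes were called higher, and MRPS6 as the 1 lower member, where 8.82% of all tested genes were called lower. Against late replete cells MRPL36 was again the 1 higher member, with 7.48% of all genes called higher, and 0 members were lower, with 7.64% of all genes called lower. These counts lie below the share of called genes in the table as a whole. At equal totals the calls over all genes against early cells were 1318 higher and 624 lower, in place of 870 higher and 1011 lower.

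MRPL36, named for the smallest protein of the bacterial large subunit, was the member with the highest ratio in deficiency. It stood at 61.7 FPKM (bounds 49.7 to 73.8) in zinc-deficient cells, against 24.2 FPKM (19.2 to 29.2) in the early and 20.6 FPKM (14.2 to 27.0) in the late replete culture, with log2 ratios of 1.31 and 1.54. After zinc addition it was at 40.5 FPKM (34.2 to 46.7) at 1.5 h, 41.7 at 3 h, 34.5 at 4.5 h, 21.5 (18.5 to 24.6) at 12 h and 26.6 (22.7 to 30.5) at 24 h. The deficient value lies above the bounds of all 7 other conditions, and the values at 12 and 24 h lie within the bounds of the early replete value. Relative to 0 h its log2 ratios of -0.60 (1.5 h), -0.56 (3 h) and -0.82 (4.5 h) were not called although the bounds did not overlap. On the same scale MRPL36 fell by 1.48 at 12 h and by 1.18 at 24 h. Called lower members were 1 of 37 at both times (MRPL36), against 6.31% of all genes at 12 h and 6.92% at 24 h.

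The gene is Cre09.g388150, at 2913539 to 2915530 on chromosome 9 in the table's coordinates, written from 1, whose genome build is not stated by any source used here. The span next to it belongs to RPL10, a cytosolic ribosomal protein gene 100 bases away, which was at 6240 FPKM in deficient cells against 3820 FPKM in the early and 3540 FPKM in the late replete culture. The RPL10 log2 ratios were 0.71 and 0.82 in deficiency. After zinc addition they were 0.01 (1.5 h), -0.85 (12 h) and -0.64 (24 h), and none of the 5 was called. The gene on the other side, Cre09.g388100, lies 2 bases away and was called lower in deficiency, at 0.168 FPKM against 2.02 FPKM in early and 3.45 FPKM in late cells. The part of these neighbours in the MRPL36 values was not tested. MRPS14 and MRPS18, named for other proteins with zinc-binding and zinc-free forms in bacteria, were called in no comparison. MRPS14 was at 14.6 FPKM in deficient cells against 14.1 FPKM in the early and 9.92 FPKM in the late replete culture (log2 ratios 0.04 and 0.51). MRPS18 was at 2.97 FPKM in deficient cells against 4.41 FPKM in the early and 3.42 FPKM in the late culture (-0.45 and -0.16). These genes were set side by side after their values had been seen.

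MRPS6, named for a protein of the platform of the small subunit, had the widest course of the set. It stood at 74.3 FPKM (60.5 to 88.1) at 0 h, 324 (271 to 377) at 1.5 h, 244 (201 to 288) at 3 h, 208 (168 to 249) at 4.5 h, 120 (102 to 139) at 12 h and 183 (155 to 212) at 24 h, against 175 FPKM (139 to 212) in early and 109 FPKM (73.7 to 144) in late replete cells. Its bounds at 1.5 h lie above those of all other conditions except 3 h, with which they overlap. MRPS6 was lower in deficient than in early replete cells (log2 ratio -1.23), a call that ends at equal totals (-0.93), while its bounds overlapped those of late replete cells (-0.54). It rose relative to 0 h by 2.11 at 1.5 h, 1.70 at 3 h, 1.47 at 4.5 h and 1.29 at 24 h on the log2 scale, and at 12 h its ratio of 0.69 was not called. MRPS6 was the 1 called higher member of 37 at each of these 4 times, where 12% of all genes were called higher at 1.5 h, 10.4% at 3 h, 10.2% at 4.5 h and 8.49% at 24 h. At 12 h 0 members were called higher, against 7.25% of all genes. At equal totals the calls over all genes were 759 higher and 1065 lower at 3 h in place of 1188 and 665, 741 and 1044 at 4.5 h in place of 1171 and 747, and 766 and 1025 at 24 h in place of 973 and 793.

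In level MRPS6 stood between its own set and the nuclear genes for plastid ribosomal proteins. It was above the other 36 members and below every 1 of the 32 plastid genes in all 8 conditions, the plastid genes having medians of 223 FPKM at 0 h, 638 at 1.5 h and 464 FPKM in early replete cells. Its log2 ratio lay within the range of the plastid genes in 9 of 10 comparisons, the exception being 24 h against late replete cells, and within the range of the other 36 members in 2 of 10. It was higher than the log2 ratio of 31 of the 32 plastid genes at 1.5 h, 8 at 3 h, 6 at 4.5 h, 9 at 12 h and 29 at 24 h, and than all 32 in 24 h against late cells. In deficiency it was higher than that of 7 of the 32 against early and 18 against late cells. At 1.5 h against 0 h the plastid genes ranged in log2 ratio between 1.22 and 2.15 with a median of 1.61, and at 3 h their median was 1.88. PRPS6, the plastid gene of the same protein name, was at 872 FPKM at 1.5 h against 234 FPKM at 0 h (log2 ratio 1.89), at 1030 FPKM at 3 h (2.13) and at 511 FPKM at 24 h (1.12). These comparisons share the 0 h value. The symbol is the basis for calling MRPS6 mitochondrial here, and neither its protein nor its location was measured. MRPS6 alone made up 16.3% of the summed FPKM of the 37 genes at 0 h, 44.6% at 1.5 h and 32.6% at 24 h, against 31.3% in the early and 26.8% in the late culture. The gene is Cre12.g558000, at 7263751 to 7265263 on chromosome 12, and the genes beside it went otherwise at 1.5 h, Cre12.g558050 (307 bases away) with a log2 ratio of -1.71 and DNJ27 (445 bases away) with 0.25.

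MRPL11, named for the protein at the base of the factor-binding stalk, went the other way from most members after zinc addition. It stood at 18.9 FPKM (15.5 to 22.3) at 0 h, 7.27 (5.95 to 8.59) at 1.5 h, 10.9 (8.98 to 12.9) at 3 h, 11.6 (9.45 to 13.8) at 4.5 h, 14.3 (12.2 to 16.4) at 12 h and 15.9 (13.4 to 18.3) at 24 h, against 16.1 FPKM (12.7 to 19.6) in early and 16.9 FPKM (11.8 to 22.0) in late replete cells. The 1.5 h value lies below the bounds of every other condition, and each later time is higher than the one before it. MRPL11 fell by 1.27 on the log2 scale at 1.5 h, the 1 called lower member of 37, where 9.24% of all genes were called lower. With a pseudocount of 5 FPKM its ratio is -0.96 and the call ends. At 3 and 4.5 h its log2 ratios of -0.73 and -0.66 were not called although the bounds stayed apart, and 0 members were called lower then, against 5.8% and 6.51% of all genes. Its deficient value differed from both replete values by log2 ratios of 0.21 and 0.15, within the bounds. The gene is Cre17.g722200, at 3207048 to 3208808 on chromosome 17. Its neighbours PKS3 (100 bases away) and Cre17.g722250 (128 bases away) had log2 ratios of 0.21 and 1.17 at 1.5 h. MRPL7, MRPL13 and MRPS7 shared with it a lowest value at 1.5 h.

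**Figure D2:**
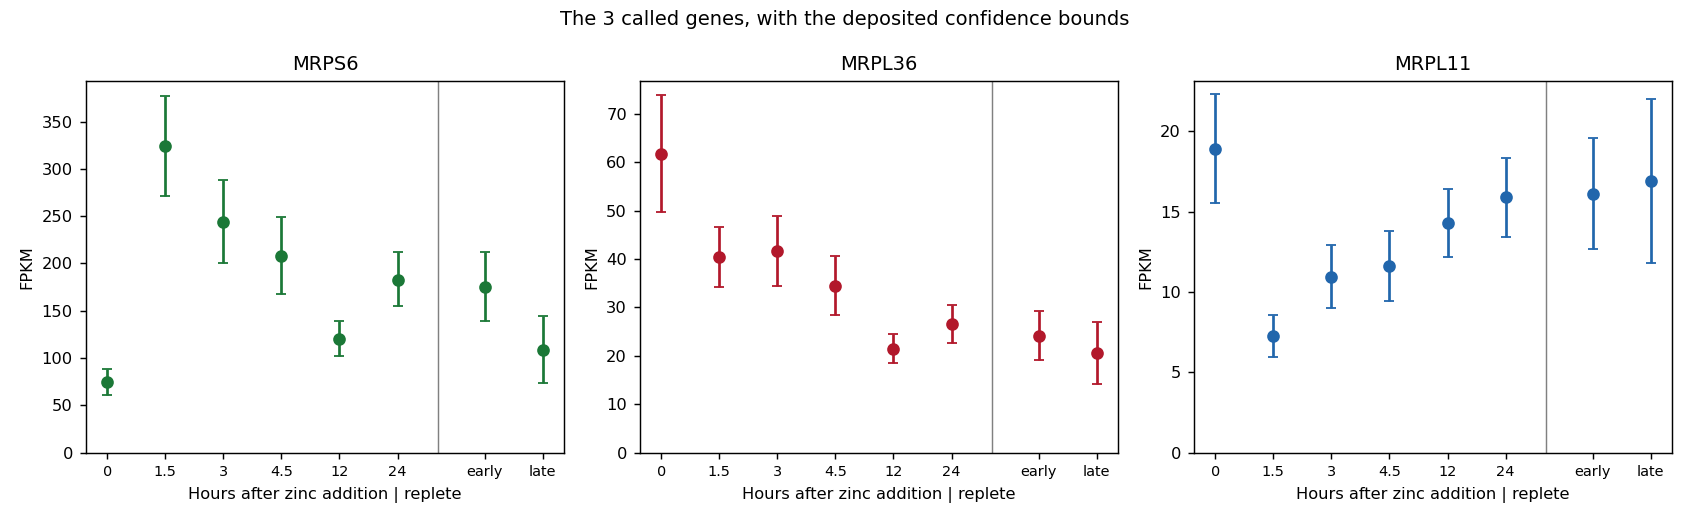
FPKM of MRPS6, MRPL36 and MRPL11 by condition (hours after zinc addition, evenly spaced and not to scale, then early and late replete cells), each panel starting at 0. Points are the deposited values and bars the deposited confidence bounds. MRPS6 is highest at 1.5 h (324 FPKM), MRPL36 is highest at 0 h (61.7 FPKM) and MRPL11 is lowest at 1.5 h (7.27 FPKM).

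In zinc-deficient cells the bulk of the set lay near its replete levels, and the sign of the median difference depended on the replete culture used. The median log2 ratio of the 37 members was -0.14 against early and 0.15 against late replete cells, beside medians of -0.09 and -0.04 over all genes. The ratio was below 0 in 26 of 37 members against early replete cells (56.4% of all genes) and in 12 of 37 against late ones (53.1% of all genes), and rescaling every condition to the same total turned the first count to 15 of 37 and the median against early cells to 0.10, beside 0.14 over all genes. Beyond the called genes, the bounds were apart in MRPL3 (5.81 FPKM against 9.71 in early cells, log2 ratio -0.65) and MRPS15 (4.24 FPKM against 6.81, -0.58) on the lower side, and against late cells in MRPL14 (22.1 FPKM against 12.1, 0.82) on the higher side. MRPL3 and MRPL14 are named for proteins near the peptidyl transferase centre and at the interface of the subunits, and MRPS15 for an early RNA-binding protein of the small subunit. Bounds apart with any size of change were found in 3 of 37 lower members against early cells, where 22.8% of all genes met this, and in 2 of 37 higher members against late cells, where 15.8% did. These bounds are as deposited, and the counts were not repeated at equal totals, where 0 h is multiplied by 1.11 and early cells by 0.903. The 6 genes of the peptidyl transferase region and exit tunnel (MRPL2, MRPL3, MRPL4, MRPL16, MRPL22 and MRPL23) had a median log2 ratio of -0.41 against early cells, each between -0.65 and -0.14, while the 5 genes of the small-subunit head lay between -0.43 and 0.11 with a median of 0.01, so the ranges overlap. Against late cells the 6 genes lay between -0.23 and 0.58 (median -0.12) and the 5 head genes between 0.01 and 0.51 (median 0.23).

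After zinc addition most members were somewhat higher than at 0 h for the hours up to 4.5 h. The ratio to 0 h was above 0 in 30 of 37 members at 1.5 h (51.1% of all genes), in 34 at 3 h (58.5%), in 33 at 4.5 h (57.4%), in 21 at 12 h (54.9%) and in 28 at 24 h (56.4%). The median log2 ratio of the members was 0.21, 0.41, 0.36, 0.08 and 0.13 at these times, and the median over all genes was 0.02, 0.11, 0.10, 0.06 and 0.08. These 5 comparisons share the 0 h value. Rescaling to the same total moved the all-gene median at 3 h to -0.11, the member count above 0 at 3 h to 24 of 37, and the member median at 24 h to -0.01. Relative to the median of all genes, the members were 0.30 higher at 3 h as deposited, 0.28 higher after median-of-ratios rescaling and 0.26 higher at equal totals. With a pseudocount of 5 FPKM they were 0.23 higher. A filter of 5 FPKM raised the all-gene median at 3 h to 0.21, and the 31 members left were 0.2 higher. At 4.5 h that filter left them 0.15 higher, in place of 0.26. Apart from MRPS6, MRPL36 and MRPL11, the shift is made of ratios under the threshold for a call.

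The members behind this shift came from both subunits. At 3 h 12 of 37 members had bounds above those of 0 h (27.6% of all genes), and at 4.5 h 13 of 37 did (26.6% of all genes), shares close to the background. These bounds are as deposited, and the counts were not repeated at equal totals. That rescaling multiplies 0 h by 1.11, 3 h by 0.907 and 4.5 h by 0.94, which moves the bounds towards each other. MRPS17, named for a body protein of the small subunit, was at 8.33 FPKM (6.68 to 9.98) at 3 h, against 4.46 FPKM (3.37 to 5.55) at 0 h (log2 ratio 0.77). MRPL3 was at 9.94 FPKM at 3 h and 9.85 at 4.5 h, against 5.81 FPKM at 0 h (0.68 and 0.67). MRPL20, named for an assembly protein of the large subunit, was at 18.7 FPKM (15.4 to 21.9) at 4.5 h, against 11.4 FPKM (9.32 to 13.5) at 0 h (0.66). By deposited value, 8 members were highest at 1.5 h (MRPS6, MRPS2, MRPL23 and MRPL19 among them), 9 at 3 h and 14 at 4.5 h. Bounds of neighbouring times can overlap almost wholly, as in MRPL43 (12.0 to 17.0 FPKM at 3 h, 12.0 to 17.2 at 4.5 h). Differences between members in the time of the highest value, here and below, were therefore not tested. MRPS2 was at 6.19 FPKM at 1.5 h, 6.14 at 3 h and 4.63 at 4.5 h, against 3.83 FPKM at 0 h, and MRPL20 was at 12.6 FPKM at 1.5 h, 17.3 at 3 h and 18.7 at 4.5 h, against 11.4 FPKM at 0 h.

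By role, the ranges of the larger groups overlapped at 3 h, and no difference between them was tested. At 3 h the median log2 ratio was 0.42 in the 23 large-subunit genes (-0.73 to 0.68) and 0.34 in the 14 small-subunit genes (-0.11 to 1.70). The 6 peptidyl transferase and tunnel genes lay between 0.38 and 0.68, the 6 body and platform genes between 0.22 and 1.70, and the 5 head genes between -0.11 and 0.50. The 31 genes with a bacterial counterpart had a median of 0.42 and the 6 genes for proteins that mitochondria added (MRPL43, MRPL45, MRPL46, MRPL54, MRPS29 and MRPS34) a median of 0.30. Among these last, MRPS29, whose human counterpart is the GTP-binding protein DAP3, had the flattest course of the set (a distance of 0.29 between highest and lowest condition), with 6.12 FPKM at 0 h, 6.96 at 1.5 h, 5.52 at 4.5 h and 6.36 at 24 h, against 5.53 FPKM in early and 6.08 FPKM in late replete cells. MRPL45, whose human counterpart binds the inner membrane, was at 8.45 FPKM at 1.5 h and 8.59 at 3 h, against 5.97 FPKM at 0 h, and was not called.

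In the peptidyl transferase and tunnel group, MRPL23, whose bacterial namesake sits at the tunnel exit, was at 8.47 FPKM at 0 h, 13.4 at 1.5 h, 11.6 at 3 h, 11.0 at 4.5 h, 9.13 at 12 h and 10.4 at 24 h, against 9.90 FPKM in early and 7.33 FPKM in late replete cells. MRPL4, of the tunnel wall, was at 10.1 FPKM at 0 h, 13.3 at 1.5 h, 15.4 at 3 h, 15.9 at 4.5 h, 13.2 at 12 h and 14.1 at 24 h, against 13.6 FPKM in early and 11.9 FPKM in late cells. MRPL23 was highest at 1.5 h and lowest in late cells, while MRPL4 was highest at 4.5 h and lowest at 0 h. MRPL16, near the incoming transfer RNA, was at 3.84 FPKM at 0 h, 4.15 at 1.5 h, 6.24 at 3 h, 6.20 at 4.5 h, 3.82 at 12 h and 3.97 at 24 h, against 4.35 FPKM in early and 2.24 FPKM in late cells. MRPL22 was at 2.52 FPKM at 0 h, 2.97 at 1.5 h, 3.64 at 3 h, 3.50 at 4.5 h, 3.29 at 12 h and 3.84 at 24 h, against 4.26 FPKM in early and 2.61 FPKM in late cells. MRPL22 was thus highest in early replete cells, as were MRPL2 and MRPS15.

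In the stalks, MRPL1 was at 1.80 FPKM at 0 h, 3.11 at 1.5 h, 3.12 at 3 h, 3.40 at 4.5 h, 2.49 at 12 h and 2.80 at 24 h, against 2.81 FPKM in early and 2.00 FPKM in late cells. MRPL7 was at 22.5 FPKM at 0 h, 19.7 at 1.5 h, 30.2 at 3 h, 35.2 at 4.5 h, 28.3 at 12 h and 31.7 at 24 h, against 32.2 FPKM in early and 22.6 FPKM in late cells. The 3 stalk genes thus took 3 different courses at 1.5 h, with log2 ratios of 0.55 (MRPL1), -0.18 (MRPL7) and -1.27 (MRPL11). At the subunit interface, MRPL14 was at 22.1 FPKM at 0 h, 28.6 at 1.5 h, 26.9 at 3 h, 22.9 at 4.5 h, 17.2 at 12 h and 20.1 at 24 h, against 19.9 FPKM in early and 12.1 FPKM in late cells, and so was highest at 1.5 h and lowest in late cells.

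In the small-subunit head, MRPS7 was at 4.72 FPKM at 0 h, 4.38 at 1.5 h, 7.11 at 3 h, 7.54 at 4.5 h, 6.48 at 12 h and 6.84 at 24 h, against 6.71 FPKM in early and 4.68 FPKM in late cells. MRPS14 was at 14.6 FPKM at 0 h, 12.8 at 1.5 h, 13.4 at 3 h, 14.4 at 4.5 h, 12.0 at 12 h and 13.6 at 24 h, against 14.1 FPKM in early and 9.92 FPKM in late cells, and it shared with MRPL11 and MRPL36 a highest value at 0 h. MRPS9 was highest at 1.5 h (10.5 FPKM, against 7.85 FPKM at 0 h), and MRPS13 and MRPS19 at 4.5 h (22.6 FPKM against 20.4, and 9.32 FPKM against 7.06). In the body and platform, MRPS17 was at 6.77 FPKM at 1.5 h, 8.33 at 3 h, 7.40 at 4.5 h, 5.19 at 12 h and 4.60 at 24 h, against 4.46 FPKM at 0 h. MRPS18 was at 2.97 FPKM at 0 h, 3.63 at 1.5 h, 4.44 at 3 h, 4.80 at 4.5 h, 3.79 at 12 h and 4.20 at 24 h, against 4.41 FPKM in early and 3.42 FPKM in late cells. Its partner by name, MRPS6, had its highest value at 1.5 h, and MRPS18 and MRPS11 had theirs at 4.5 h. MRPS11 was at 7.47 FPKM (5.87 to 9.06) at 4.5 h against 6.17 FPKM (4.83 to 7.51) at 0 h, so these bounds overlap.

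Among the proteins that mitochondria added, MRPL46 was at 5.03 FPKM at 0 h, 5.80 at 1.5 h, 5.71 at 3 h, 5.44 at 4.5 h, 3.77 at 12 h and 4.45 at 24 h, against 4.39 FPKM in early and 2.82 FPKM in late cells. MRPL43 and MRPL54 were highest at 4.5 h (14.6 FPKM against 9.37 at 0 h, and 14.1 FPKM against 10.2), and MRPS34 at 3 h (18.5 FPKM against 14.2). The remaining large-subunit genes were highest at 3 h (MRPL15, MRPL17, MRPL21 and MRPL30) or at 4.5 h (MRPL13, MRPL20 and MRPL47), apart from MRPL36. Among these, MRPL13 was at 8.25 FPKM at 0 h, 6.62 at 1.5 h, 9.99 at 3 h, 11.4 at 4.5 h, 8.92 at 12 h and 9.11 at 24 h, against 9.19 FPKM in early and 7.53 FPKM in late cells.

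**Figure D3:**
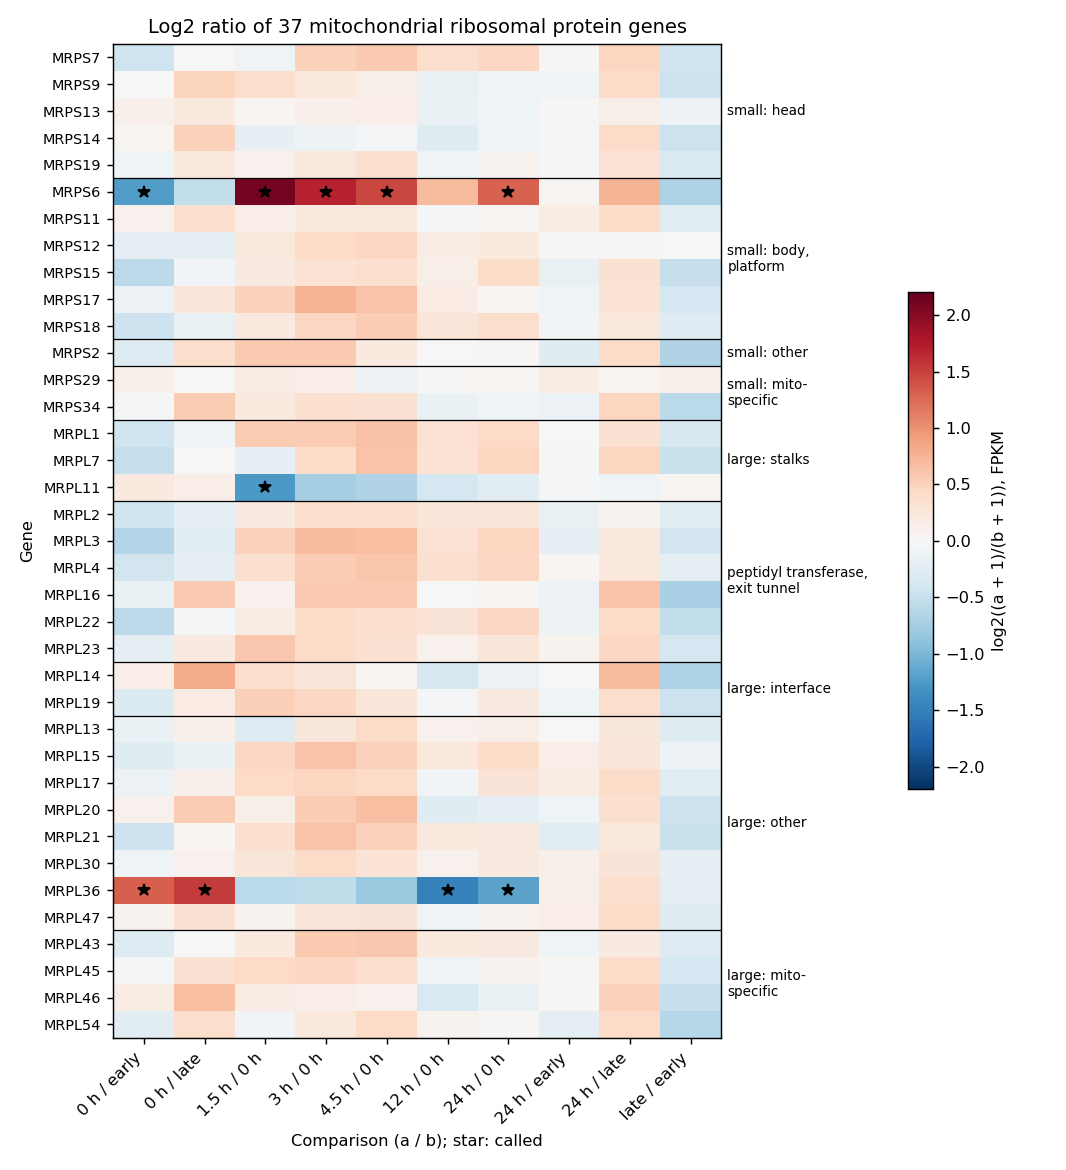
Log2 ratio of FPKM + 1 for the 37 genes (rows, grouped by role) in 10 comparisons (columns, a / b). Red is higher and blue lower in a than in b, and a star marks a call. Stars stand in the rows of MRPS6 (5), MRPL36 (4) and MRPL11 (1), and the columns of 1.5, 3 and 4.5 h are pale red in most other rows.

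By 24 h every member was close to the early replete level, as were most genes in the table. The log2 ratio of 24 h against early replete cells lay between -0.26 (MRPS2, 3.91 FPKM against 4.88) and 0.17 (MRPS29, 6.36 FPKM against 5.53) in all 37 members, with a median of -0.02, beside 0.01 over all genes. At equal totals the medians were 0.11 for the members and 0.12 for all genes, and 30 of 37 members lay above 0. There were 0 called members in either direction, with 0.584% of all genes called, and the bounds of 24 h and early cells were apart in 0 of 37, where they were apart in 2.34% of all genes. With shares this small, 0 of 37 does not set the members apart. Of the 3 called genes, MRPS6 was at 183 FPKM at 24 h against 175 FPKM in early cells, MRPL36 at 26.6 against 24.2 and MRPL11 at 15.9 against 16.1.

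The late replete culture held lower levels than the early one for nearly all members, by small amounts. Late against early cells gave a ratio below 0 in 34 of 37 members, where 53.7% of all genes lay below 0, with a median log2 ratio of -0.39 against -0.03 over all genes. Relative to the all-gene median the members were at -0.36 as deposited and after median-of-ratios rescaling, and at -0.34 at equal totals, where 28 of 37 members stayed below 0. With a filter of 5 FPKM they were at -0.28, and with a pseudocount of 5 FPKM at -0.22. There were 0 calls among the members and 1.43% over all genes. The lowest ratios were those of MRPL16 (2.24 FPKM in late against 4.35 FPKM in early cells, -0.72), MRPS6 (-0.68) and MRPL14 (12.1 against 19.9 FPKM, -0.68), and the bounds were apart in MRPL16 and MRPS2 (2.71 against 4.88 FPKM, -0.67), the 2 of 37 that met this where 4.33% of all genes did. These bounds are as deposited and were not compared at equal totals, where early values are multiplied by 0.903 and late ones by 1.096. MRPS29, MRPL11 and MRPS12, named for a decoding-centre protein and the 1 member whose span overlaps another gene's, were the 3 members not lower, at log2 ratios of 0.12, 0.06 and 0.00. Accordingly 24 h against late cells gave a ratio above 0 in 36 of 37 members (53.8% of all genes), with a median of 0.36 and 0 calls, where 1.4% of all genes were called. Both comparisons share the late value, so they are not independent. Neither pattern was particular to the members. Late against early cells gave ratios below 0 in 32 of 32 plastid and 48 of 50 cytosolic ribosomal protein genes (medians -0.5 and -0.28). Among respiratory chain and ATP synthase genes 64 of 72 lay below 0 (median -0.15). In 24 h against late cells 32, 45 and 64 genes of these lists lay above 0, with medians of 0.41, 0.11 and 0.11.

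The other ribosomes and the machinery around the mitochondrial one are described here without a test of any difference from the members. Their medians lay near the member median in some comparisons and away from it in others. In deficiency the cytosolic ribosomal median was -0.1 against early and 0.22 against late cells, beside -0.14 and 0.15 for the members. At 1.5 h against 0 h the plastid median was 1.61, beside 0.21 for the members. At 1.5 h against 0 h 32 of 32 plastid ribosomal protein genes were called higher, against 1 of 37 mitochondrial ones, and of 50 cytosolic ones 1 was called higher and 1 lower, with a median of 0.11. The 72 genes of the respiratory chain and ATP synthase gave 0 higher and 3 lower at 1.5 h (12% and 9.24% of all genes), with medians of -0.05 at 1.5 h, 0.10 at 3 h and 0.28 at 24 h. In deficiency their median was -0.29 against early cells, with 1 higher and 0 lower (7.59% and 8.82% of all genes), and -0.15 against late cells, with 2 higher and 0 lower (7.48% and 7.64%). Genes of mitochondrial protein import, 12 of 14 of which passed the filter, gave 0 calls against early cells (median -0.06) and 3 higher and 0 lower against late cells (median 0.72), where 7.48% of all genes were called higher. Their medians were 0.33, 0.51 and 0.57 at 1.5, 3 and 4.5 h, each with 1 higher and 0 lower, where 12%, 10.4% and 10.2% of all genes were called higher. In late against early cells their median was -0.71, with 0 higher and 2 lower, where 0.689% of all genes were called lower. In 24 h against late cells it was 0.70, with 2 higher and 0 lower, where 0.602% of all genes were called higher. Of 6 mitochondrial carriers, 1 was lower in deficiency against early cells (8.82% of all genes). Against late cells 1 of them was higher and 1 lower in deficiency (7.48% and 7.64% of all genes). Against 0 h the carriers gave 0 calls at 1.5 and 3 h, 1 higher at 4.5 h, 1 at 12 h and 2 at 24 h. Over all genes 10.2%, 7.25% and 8.49% were called higher at 4.5, 12 and 24 h. The mitochondrial chaperones CPN60C and HSP70C gave 0 calls at all 5 times after zinc addition. Of them 1 was lower in late than in early cells (0.689% of all genes) and 1 higher at 24 h than in late cells (0.602%). In level per length the mitochondrial ribosomal genes were far below both other ribosomes, with a median of 9.71 FPKM in early replete cells, against 464 FPKM for the plastid and 5960 FPKM for the cytosolic list.

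**Figure D4:**
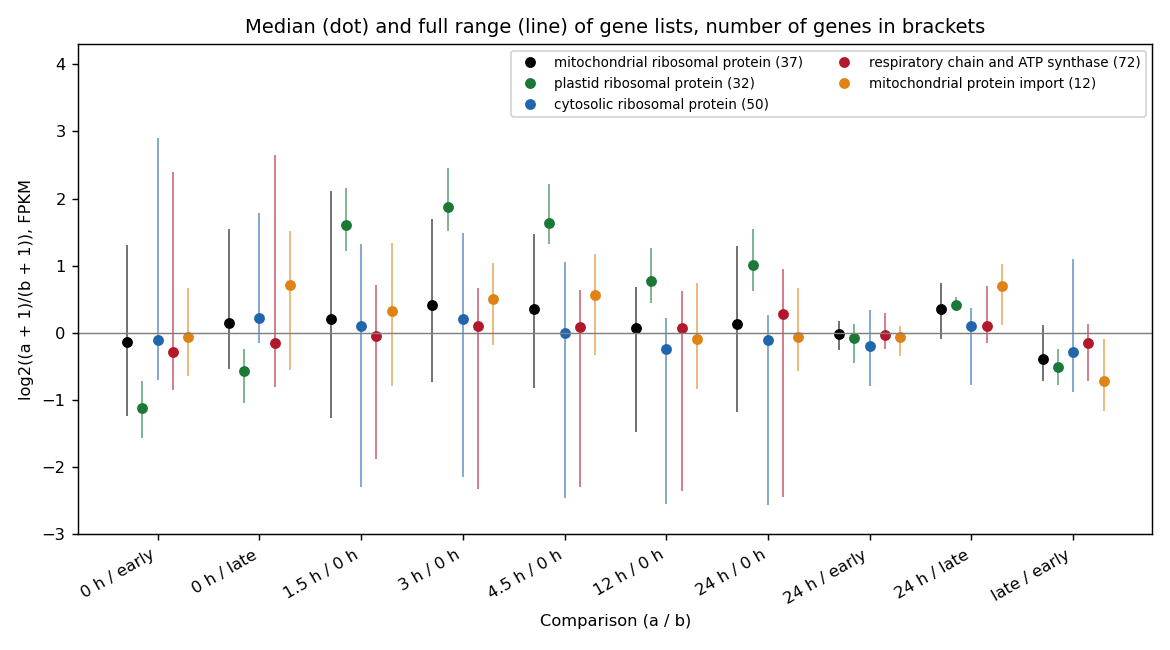
Median (dot) and full range (line) of the log2 ratio of FPKM + 1 in 5 gene lists for 10 comparisons (a / b), with the number of genes tested in brackets. The mitochondrial ribosomal median stays between -0.39 and 0.41, while the plastid ribosomal median is -1.12 at 0 h against early cells and 1.88 at 3 h against 0 h.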

How the data were processed

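The submitters' processing notes name TopHat2 and Cuffdiff, and the libraries were made with a strand-specific mRNA kit, per the labels' protocols. Their versions, and how the 4 biological replicates of the design text were combined, are not stated. The authors deposited FPKM values with confidence bounds and a status, and all 37 members had the status OK in every condition. Sequencing depth is unknown: among 1163 to 1525 low genes, ratios to 0 h showed no common step (at most 1.52% in 1 bin), and summed FPKM ranged between 720944 and 886096. The members and lists were chosen with earlier results of these data known. From the FPKM, log2((a + 1)/(b + 1)) was computed for all genes with a mean of at least 1 FPKM (Python 3.11.15, pandas 2.3.3). Calls needed a log2 ratio of at least 1 in size, bounds apart and both statuses OK. A check on simulated data used the same code. Its noise was drawn from the deposited bounds, so it cannot show how reliable the calls are. The table held 0 unmapped columns of values. MRPS12 is the 1 member whose span overlaps another gene's, so its values are uncertain. Of the members' identifiers, 32 matched the reference gene table (assembly Chlamydomonas_reinhardtii_v5.5), which was used for no value. Named genes are all called members, the 3 highest and 3 lowest by mean level and by ratio, and role examples.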

Additional observations from a re-analysis of the deposited data

How the results depend on the processing

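No paired analysis was possible because each condition has 1 deposited value. No alternative turned the sign of a called member. Removing the filter, raising it to a mean of 5 FPKM, a pseudocount of 0.1 FPKM, dropping the bounds or matching any name entry moved no count of called members beyond 1.5 times and no member median beyond 0.1. A pseudocount of 5 FPKM ended the MRPL11 call at 1.5 h (0 members lower) and put the median at 0.29 for 3 h against 0 h, 0.22 for 24 h against late and -0.23 for late against early cells. A fold threshold of 4 left 0 called members, higher or lower, in every comparison except MRPS6 at 1.5 h (2.56% of all genes). A fold threshold of 1.5 gave 2 lower members in 0 h against early cells (19.5% of all genes). It gave 2 higher in 0 h against late cells (15.1% of all genes). Against 0 h it gave 2 of 37 higher and 2 lower at 1.5 h, where 21.6% and 19.8% of all genes were called. At 3 h it gave 5 higher and 1 lower (22.3% and 12.6% of all genes). At 4.5 h it gave 8 higher and 2 lower (21.8% and 13.1%), and at 12 h 1 higher (16.5%). These member counts lie near or below the shares over all genes. It gave 2 higher in 24 h against late cells (4.97% of all genes) and 2 lower in late against early cells (4.01%). Median-of-ratios rescaling put the median at 0.27 at 3 h and 0.24 at 4.5 h against 0 h. Equal totals ended the MRPS6 call against early cells (0 lower, log2 ratio -0.93) and made MRPL11 a lower member at 3 h and MRPL36 at 4.5 h (1 each). Equal totals put the medians at 0.10 for 0 h against early cells, 0.10, 0.15, 0.16 and -0.01 at 1.5, 3, 4.5 and 24 h against 0 h, 0.11 and 0.25 for 24 h against early and late cells, and -0.15 for late against early cells. Calls over all genes moved more. A pseudocount of 0.1 FPKM gave 146 higher and 143 lower in 24 h against late cells in place of 69 and 91, and 151 and 165 in late against early cells in place of 85 and 79, and 28 higher in 24 h against early cells in place of 16. A pseudocount of 5 FPKM gave, for example, 794 and 497 at 1.5 h against 0 h in place of 1371 and 1059. Fold thresholds of 1.5 and 4 gave 2480 and 293 higher there. A filter of 5 FPKM tests fewer genes and gave 44 higher in late against early cells and 377 lower at 3 h in place of 85 and 665. It put the all-gene median at 3 h at 0.21 in place of 0.11. Equal totals gave 172 higher and 28 lower in late against early cells, and 42 and 117 in 24 h against late cells. Median-of-ratios rescaling gave 922 and 854 at 3 h in place of 1188 and 665, and 887 and 910 at 4.5 h in place of 1171 and 747. The cause was not tested for any of these. Neither the level of the bounds nor how replicate cultures enter them is stated, and the depth behind them is unknown.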

Other observations

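The neighbouring RPL10 gene of MRPL36 was at 6240 FPKM at 0 h, 6300 at 1.5 h and 3470 at 12 h, while MRPL36 was at 61.7 FPKM at 0 h, 40.5 at 1.5 h and 21.5 at 12 h. A name pattern intended for translation factors matched 31 symbols, of which 15 were intraflagellar transport (IFT) and 5 replication factor C (RFC) genes, so it describes no single function. It gave 3 higher and 4 lower genes at 1.5 h against 0 h, where 12% and 9.24% of all genes were called, with a median log2 ratio of -0.42.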
